A study of Homo sapiens with 6 samples.

Results

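Transcripts of genes known to act in the exit of cells from G1 were followed in DU-145-DR/tet-MUC1shRNA cells with and without DOX-induced silencing of MUC1. The genes were 10, picked by symbol, out of 28008 genes in the count table. These encode the D-type cyclins (CCND1, CCND2, CCND3), their kinases (CDK4, CDK6), the CDK inhibitors CDKN1B, CDKN1C, CDKN2A and CDKN2B, and the retinoblastoma protein (RB1). The inhibitor genes CDKN1A, CDKN2C and CDKN2D were not among them and are in the partner list below. DU-145 is a human prostate cancer cell line, and DU-145-DR is its derivative after 24 weeks of selection in increasing DTX (docetaxel, a microtubule-stabilizing drug). The cells carried a DOX-inducible hairpin against MUC1 in a lentiviral vector and were selected with puromycin. The DOX-negative group was 3 cultures of this DTX-resistant line given DMSO vehicle for 7 days, and the DOX-positive group was 3 cultures of it given 500 ng/ml DOX for 7 days. The treatment label mentions the hairpin in DOX-positive samples alone, and that both groups carried it was taken from the study. DOX-treated cells with a control hairpin were not analysed here, so silencing of MUC1 and exposure to DOX cannot be told apart.

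D-type cyclins join CDK4 or CDK6 to form the kinases that phosphorylate RB1 in G1, which releases E2F factors and opens the way to S phase. INK4 inhibitors, such as the products of CDKN2A and CDKN2B, bind CDK4 and CDK6 directly, whereas the CIP/KIP inhibitors p27 (CDKN1B), p57 (CDKN1C) and p21 (CDKN1A) bind cyclin and kinase together and act mainly on CDK2. DU-145 is a line known to lack functional RB protein although it makes RB1 transcript, so RB1 is described here as a transcript level.

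Of the 10 genes, 9 passed the filter on low counts. CDK6 and CCND1 rose with DOX and RB1 fell, at a Benjamini-Hochberg adjusted p under 0.05 in edgeR's quasi-likelihood test. These 3 of 9 (33.3%) stand beside 26.7% of all 14292 genes tested, 13.0% higher and 13.7% lower. In 4 of the 9 the CPM values (counts relative to TMM-scaled library sizes) of the groups did not overlap, beside 39.8% of all genes tested. The median log2 fold change was 0.13 over the 9 genes and -0.0034 over all genes tested. The other 6, CCND3, CDK4, CDKN1B, CDKN1C, CDKN2A and CDKN2B, did not pass the test, and CCND2 was below the filter.

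MUC1, the target of the hairpin, was read 387, 484 and 396 times in the vehicle cultures and 75, 74 and 66 times with DOX, which gave a log2 fold change of -2.52 (standard error 0.146) with an edgeR adjusted p of 4.47e-11. Libraries held 15092691 to 23243713 counts, and 3 counts, the detection floor used here, corresponded to 0.129 to 0.199 CPM. Summed CPM of 5 epithelial markers (KRT8, KRT18, KRT19, EPCAM, CDH1) was 758 to 838 without DOX and 1444 to 1517 with DOX, with 5 of 5 passing the test as higher, and its part in the changes below was not tested. The prostate secretory marker KLK3 was at 0 counts in all 6 libraries, as were the neuroendocrine markers CHGA, INSM1 and NEUROD1. In the full lists, 2 of 5 androgen receptor axis markers and 4 of 5 neuroendocrine markers were at 0. The 1 androgen receptor axis marker tested had a log2 fold change of 0.22 and did not pass, although its groups did not overlap. Summed neuroendocrine CPM was low, at 0.11 to 0.398 without DOX and 0.47 to 0.74 with DOX, and none of these genes was tested. Of the defining basal (3), stromal (5), leukocyte (4) and endothelial (3) markers, 3, 3, 3 and 2 stayed under 10 counts in every library. The remaining leukocyte marker, CD68, a lysosomal protein gene of macrophages that other cells also express, was higher with DOX (0.75 log2, edgeR adjusted p = 8.39e-08), the summed leukocyte CPM was 91.4 to 106 without DOX and 158 to 179 with DOX, and its part in the changes was not tested. In these bulk libraries, fewer cells of a type and less RNA per cell cannot be told apart.

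Promoter windows of CDK4 and CDK6 are shown because the 2 kinases share a function, differ in response, and were the only genes of the 7 with a window that held the E-box word CACGTG, which MYC and related factors are known to bind. The windows come from RefSeq (GRCh38.p14) and run 5′ to 3′ from 250 bases before to 50 bases after an annotated start, with CACGTG in capitals. They lie on the minus strand at chr12:57752261-57752560 for CDK4 and chr7:92836524-92836823 for CDK6.
CDK4: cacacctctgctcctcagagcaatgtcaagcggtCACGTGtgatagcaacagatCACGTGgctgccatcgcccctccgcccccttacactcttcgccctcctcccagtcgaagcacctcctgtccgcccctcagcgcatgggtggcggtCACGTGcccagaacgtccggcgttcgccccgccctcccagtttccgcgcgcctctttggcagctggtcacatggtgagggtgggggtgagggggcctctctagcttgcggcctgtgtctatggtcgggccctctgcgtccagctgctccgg
CDK6: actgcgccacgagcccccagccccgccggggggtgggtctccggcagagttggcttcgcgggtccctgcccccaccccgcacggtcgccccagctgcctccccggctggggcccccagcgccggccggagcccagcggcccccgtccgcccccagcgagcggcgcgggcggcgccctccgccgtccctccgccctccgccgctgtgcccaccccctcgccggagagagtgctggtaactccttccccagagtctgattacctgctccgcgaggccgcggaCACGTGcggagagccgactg
The CDK4 window held the word 3 times and the CDK6 window 1 time. The word is its own reverse complement, so 1 strand was searched. Of 35116 windows of this length in the table, 7.26% held it at least once and 0.094% (33 windows) at least 3 times. A 2nd CDK6 window, at chr7:92833910-92834209, did not hold it, nor did the 8 windows listed for CCND3, CDKN1B, CDKN2A, CDKN2B and RB1. The RB1 entry, at chr13:48476200-48476499, lies inside the gene and not at its first annotated base. The E2F-site words TTTCGCGC and TTTGGCGC, searched on both strands, were in 0 of the 11 windows, beside 0.515% and 0.652% of all windows. A match is a run of letters and not a measured site.

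CDK6, which pairs with the D cyclins to phosphorylate RB1, changed the most of the 9 genes. In the DOX-negative libraries its CPM was 28.5, 27.6 and 33.3, and in the DOX-positive libraries it was 56.6, 52.3 and 55.3. Every DOX-positive library lay above every DOX-negative one, with a wide gap beside the spread within a group. The mean went from 29.8 ± 3.09 to 54.7 ± 2.17 CPM (SD of 3 libraries), which was a log2 fold change of 0.88 (SE 0.0880) and a fold of 1.84 (95% interval 1.62 to 2.08) with an edgeR adjusted p of 1.51e-07. CDK6 lies at chr7:92604921-92836594 (GRCh38, GENCODE 29), on the minus strand. On the TPM scale as deposited the change was smaller, 0.38 in log2(TPM + 1), and did not pass the limma test (adjusted p = 0.403). The median of all genes was -0.34 there, and relative to it CDK6 was 0.72 higher. Over 16 alternatives CDK6 was higher with DOX in 16 and passed in 14.

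CDK4, the partner kinase, did not follow. Its CPM was 72.7, 76.9 and 78.6 without DOX and 83.1, 70.1 and 77.9 with DOX. The groups overlapped, and both the highest and the lowest of the 6 values were DOX-positive libraries. The log2 fold change was 0.019 (SE 0.0763, 95% interval -0.14 to 0.18, edgeR adjusted p = 0.889), and its sign turned in 6 of 16 alternatives. The gene lies at chr12:57747727-57756013 on the minus strand, and its exons overlap those of TSPAN31 on the opposite strand, which had 9 to 31 counts beside 1159 to 1906 for CDK4. Whether reads were counted by strand is not given in the sources used here, so reads from overlapping exons could be split between such genes. Exons of CDK6 and CCND1 also overlap opposite-strand genes, AC002454.1 and LTO1, which are not in the count table by these names.

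The balance of the kinase transcripts was also compared directly. By TPM, which is scaled to transcript length, CDK6 made up 5.52%, 5.08% and 5.95% of the sum of CDK4 and CDK6 without DOX and 9.21%, 10.03% and 9.58% with DOX. This share does not depend on the scaling of the libraries. The difference in means was 4.09 percentage points (5.52 ± 0.435 against 9.61 ± 0.407, SD, n = 3 each), with a two-sided exact permutation p of 0.1, the smallest that 3 against 3 libraries allow. As a share of counts, not scaled to length, the difference was 13.5 points with the same p. CDK4 remained the more abundant kinase transcript in all 6 libraries.

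**Figure D1:**
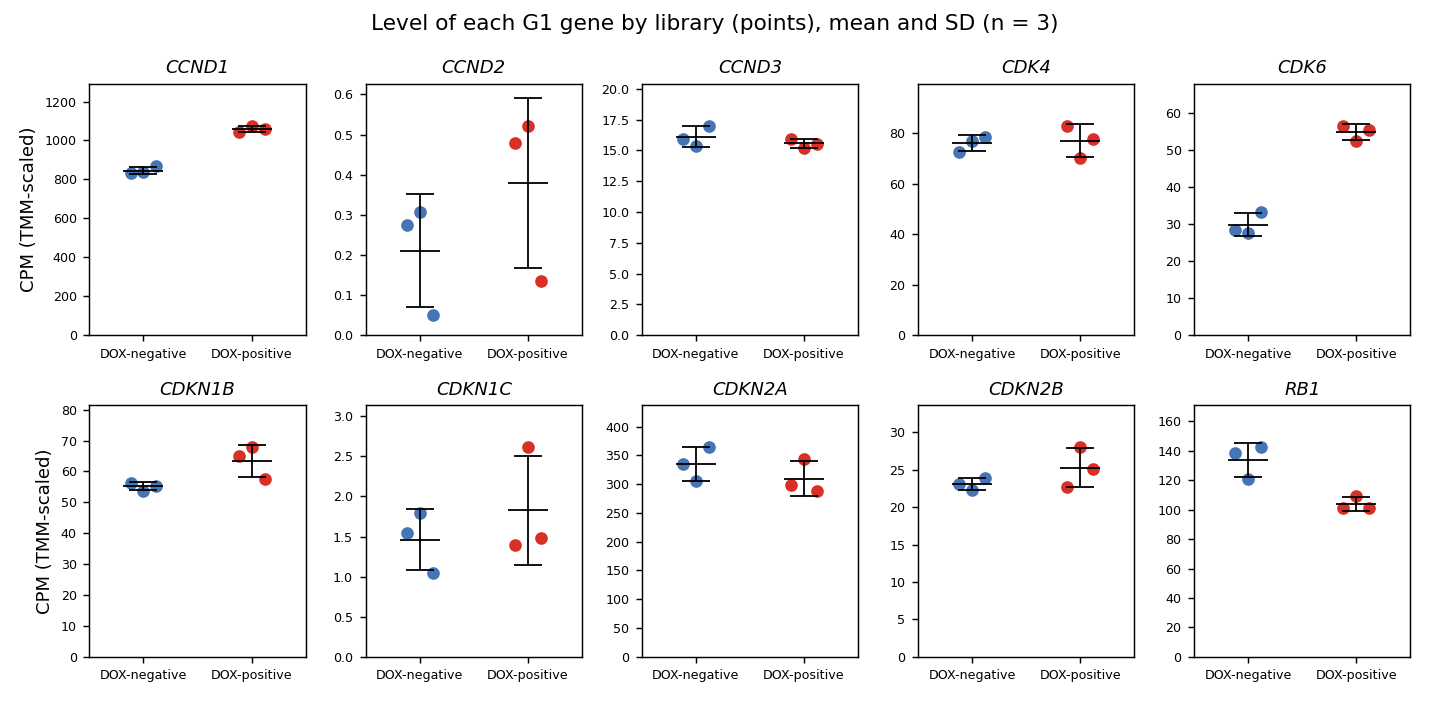
CPM of each of the 10 genes in each library, DOX-negative and DOX-positive, with 1 panel per gene and its own vertical axis. Points are libraries, and bars are the mean and SD of 3. CDK6 rose from 29.8 to 54.7, CCND1 from 845 to 1059, and RB1 fell from 134 to 104, each with no overlap between the groups, whereas CDK4 values overlapped.

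CCND1, the cyclin D1 gene and a major partner of both kinases in epithelial cells, was the most abundant of the 10. Its CPM was 831, 839 and 867 without DOX and 1041, 1077 and 1059 with DOX. The groups did not overlap, and values within each were close together. The mean of 845 ± 18.7 rose to 1059 ± 17.6 CPM, a log2 fold change of 0.32 (SE 0.0600) or 1.25-fold (95% interval 1.15 to 1.37, edgeR adjusted p = 0.000329). CCND1 lies at chr11:69641087-69654474 on the plus strand. On the deposited TPM scale its direction turned, to -0.069 in log2(TPM + 1), where the median of all genes was -0.34. Relative to that median it was 0.27 higher.

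CCND3 (chr6:41934933-42050357, minus strand), the D cyclin best known from blood cells, was close to level, at 16.1 ± 0.851 CPM without DOX and 15.6 ± 0.375 with DOX. Its log2 fold change was -0.048 (95% interval -0.27 to 0.18, edgeR adjusted p = 0.795). CCND2 (chr12:4273772-4305350, plus strand) was near the detection floor, with 5, 6 and 1 counts without DOX and 11, 10 and 2 with DOX. It was not tested in the filtered table, and when the filter was dropped its edgeR adjusted p was 0.495. CCND1 thus made up 97.4% ± 0.0815 of D cyclin TPM without DOX and 98.0% ± 0.0812 with DOX (exact permutation p = 0.1, the smallest possible).

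RB1, the pocket protein that the cyclin D kinases phosphorylate, was the gene that fell. Its CPM was 139, 121 and 142 without DOX and 101, 109 and 101 with DOX. The highest DOX-positive value was below the lowest DOX-negative value. The mean fell from 134 ± 11.7 to 104 ± 4.80 CPM, a log2 fold change of -0.37 (SE 0.0727) or 0.776-fold (95% interval 0.699 to 0.861, edgeR adjusted p = 0.000643). On the deposited TPM scale the change was -0.73 in log2(TPM + 1) and -0.75 in log2(TPM + 0.1). It did not pass the limma test (adjusted p = 0.153 in both). The median of all genes was -0.34 and -0.39 in these fits, and relative to it RB1 was at -0.40 and -0.37. The gene runs over chr13:48303726-48599436 on the plus strand, and 2 coding genes lie within its span, LPAR6 with 0 to 2 counts and RCBTB2 with 51 to 152. RCBTB2, named after its values were seen, moved the other way, with a log2 fold change of 0.86 (edgeR adjusted p = 0.00341).

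**Figure D2:**
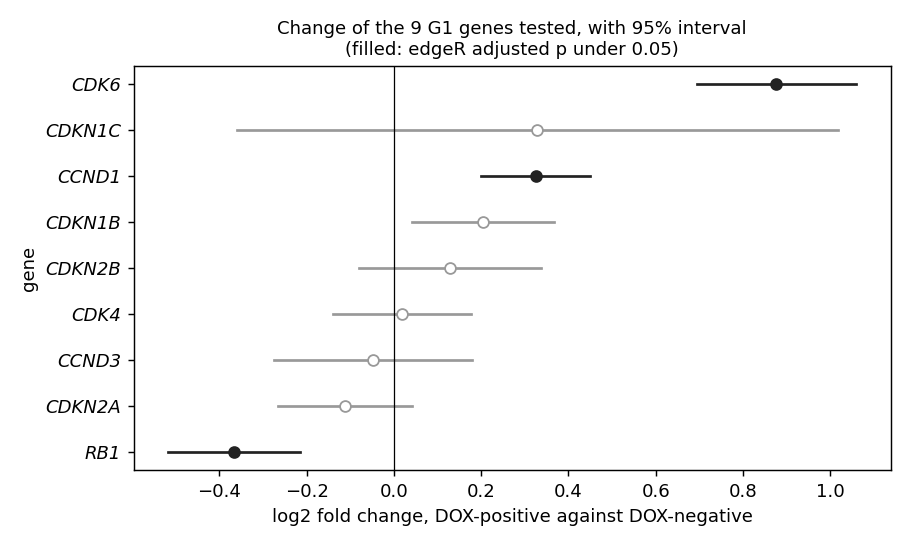
Log2 fold change, DOX-positive against DOX-negative, for the 9 tested genes, with 95% intervals from edgeR and filled points for adjusted p under 0.05. CDK6 and CCND1 lie above 0 and RB1 below it; on the deposited TPM scale CCND1, CDKN1B, CDKN1C, CDKN2B and CDK4 turned below 0, and CDK4 also did so with total counts and rescaled TPM.

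Of the 4 inhibitors among the 10 genes, 0 passed the edgeR test and 1, CDKN1B, had an unadjusted p under 0.05. DESeq2 gave the same 0 and 1. Over all genes tested the edgeR shares were 26.7% and, unadjusted, 37.9%. CDKN1B, the p27 gene (chr12:12715058-12722371, plus strand), had CPM values of 56.4, 53.7 and 55.4 without DOX and 64.9, 67.8 and 57.6 with DOX. These groups did not overlap, but DOX-positive replicate 3 lay close to the DOX-negative range. The log2 fold change was 0.20 (SE 0.0785, 95% interval 0.041 to 0.37), and the edgeR adjusted p of 0.0589 missed the threshold. Without DOX-positive replicate 3 it was 0.27 and passed (adjusted p = 0.0315). On the deposited TPM scale, in log2(TPM + 1), it was -0.19, which was 0.15 above the median of all genes. CDKN1C, the p57 gene (chr11:2883213-2885773, minus strand), had only 21 to 50 counts per library and a log2 fold change of 0.33 with a wide 95% interval, from -0.36 to 1.02 (edgeR adjusted p = 0.509).

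CDKN2A (chr9:21967753-21995301, minus strand) encodes both p16INK4a and p14ARF from different first exons, which these gene counts do not separate. It was abundant, at 335, 305 and 364 CPM without DOX and 298, 344 and 288 with DOX. The groups overlapped, and the log2 fold change of -0.11 had a 95% interval of -0.27 to 0.043 (edgeR adjusted p = 0.289). CDKN2B, the p15 gene next to it (chr9:22002903-22009363, minus strand), went from 23.1 ± 0.843 to 25.3 ± 2.63 CPM, a log2 fold change of 0.13 with a 95% interval of -0.079 to 0.34 (edgeR adjusted p = 0.374). CDKN2A exons overlap CDKN2B-AS1 on the opposite strand, which had 17 to 52 counts beside 4279 to 7316 for CDKN2A. CDKN2A made up 96.8% ± 0.164 of the INK4 TPM of these 2 genes without DOX and 96.2% ± 0.243 with DOX (exact permutation p = 0.1, the smallest possible).

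Ordered by TPM rescaled without 5 short noncoding RNAs, which compares genes per length, the DOX-negative level of CCND1 (543 ± 6.59) came first, then CDKN2A (479 ± 30.6), CDK4 (114 ± 4.06), RB1 (76.7 ± 5.27), CDKN1B (63.4 ± 1.73), CDKN2B (16.0 ± 0.210), CCND3 (14.4 ± 0.388), CDK6 (6.65 ± 0.514), CDKN1C (1.05 ± 0.297) and CCND2 (0.0878 ± 0.0593). Neighbours in this order did not overlap in their 3 libraries, in either group. With DOX the order was the same apart from 1 exchange. CDKN1B, at 71.7 ± 5.80, stood above RB1, at 58.5 ± 3.20, in the DOX-positive libraries. CDK6 rose to 12.0 ± 0.375 and kept its place below CCND3, at 13.7 ± 0.184.

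**Figure D3:**
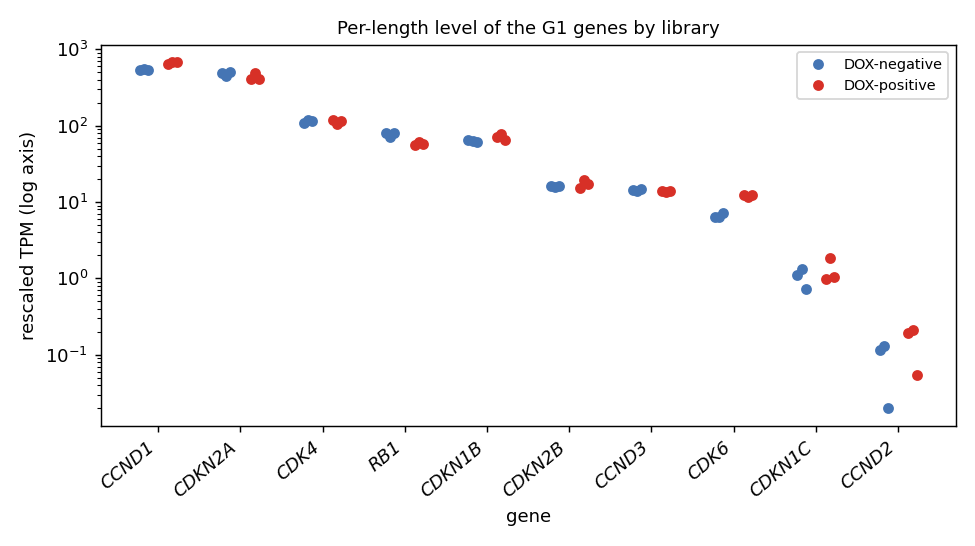
Levels of the 10 genes per transcript length, as TPM rescaled without 5 short noncoding RNAs, on a log axis, for the 3 DOX-negative and 3 DOX-positive libraries. CCND1 and CDKN2A lead in both groups, CDKN1B and RB1 exchange places, and CCND2 is near 0.1.

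The other genes of the pathway were described by lists, whose counts read against 26.7% of all genes tested. Among 10 partner genes (the A and E cyclins, CDK2, CDKN1A, the INK4 genes CDKN2C and CDKN2D, RBL1 and RBL2), 1 rose and 1 fell (20%, median log2 fold change 0.0033). CDKN1A, the p21 gene, rose from 60.0 ± 5.87 to 131 ± 14.2 CPM, a log2 fold change of 1.13 (SE 0.0849), with an edgeR adjusted p of 2.28e-09. RBL1, the p107 gene and a relative of RB1, fell from 99.4 ± 3.25 to 67.5 ± 2.90 CPM, a log2 fold change of -0.56 (SE 0.0703), with an edgeR adjusted p of 3.62e-06. RBL2, the p130 gene, had a log2 fold change of 0.013 (edgeR adjusted p = 0.916). CCNE1 (0.31, edgeR adjusted p = 0.0874) and CDK2 (-0.17, edgeR adjusted p = 0.0825) did not pass. Chosen after the values were seen, CDKN1A made up 50.4% ± 2.13 of the TPM of the 3 CIP/KIP genes without DOX and 65.8% ± 1.30 with DOX, and RB1 made up 44.7% ± 2.63 and 42.2% ± 1.78 of that of the 3 pocket proteins. The RB1 shares of the groups overlapped, and neither share was tested.

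Of 10 E2F and DP genes, a family that includes the factors that RB1 and its relatives bind, 2 rose and 2 fell (40%, median 0.025). E2F5 (-0.53, edgeR adjusted p = 0.00738) and E2F4 (-0.31, adjusted p = 0.00688), both known mainly as repressors with RBL1 and RBL2, fell. TFDP2, a dimer partner, rose (0.27, edgeR adjusted p = 0.00778). E2F7, an atypical repressor, also passed as higher (0.27, adjusted p = 0.0457) but stayed past the threshold in only 5 of 16 alternatives. E2F5 lost its call without DOX-negative replicate 1 (adjusted p = 0.0699), and E2F4 without DOX-positive replicate 3 (adjusted p = 0.0606).

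Of 25 E2F target genes, 1 rose and 7 fell (32%), and the median log2 fold change was -0.14 beside -0.0034 over all genes tested. RBL1 is in this list too. The list holds mostly DNA replication genes, and 17 of the 25 did not pass. The other 6 that fell were MCM4 (-0.41, edgeR adjusted p = 0.000164) and MCM5 (-0.35, adjusted p = 0.00265) of the replicative helicase, together with MCM3, GINS2 (-0.41, adjusted p = 0.0152), POLA1 (-0.38, adjusted p = 0.00769) and TK1 (-0.31, adjusted p = 0.0131). RRM2, a ribonucleotide reductase subunit, rose, with a log2 fold change of 0.20, and like MCM3 it was named after its values were seen. Leaving out 1 library left 5 to 8 of the 25 past the threshold, with 5 without DOX-negative replicate 3. GINS2 lost its call without DOX-negative replicate 3 or DOX-positive replicate 2, POLA1 without DOX-negative replicate 3, and TK1 without replicate 2 of either group, with adjusted p values up to 0.0718.

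Among 19 genes known to regulate transcription of the INK4 genes or CDKN1B, 4 rose and 4 fell (42.1%, median 0.093). Those that fell were CBX2 (-1.02, edgeR adjusted p = 0.0106) and BMI1 (-0.54, adjusted p = 0.0113), Polycomb subunits known to repress CDKN2A, the repressor TBX3 (-0.66, adjusted p = 0.00506), and SMAD3 (-0.19, adjusted p = 0.0209). Those that rose were MYC (0.64, edgeR adjusted p = 1.02e-06), FOXO3 (0.62, adjusted p = 1.13e-06), a factor known to activate CDKN1B, ETS1 (0.45) and ETS2 (0.25). MYC went from 121 ± 5.56 to 188 ± 18.7 CPM and FOXO3 from 49.8 ± 0.545 to 76.8 ± 1.88 CPM, with no overlap between the groups. CBX2 was low, at 1.28 to 4.50 CPM, and lost its call without DOX-positive replicate 1 (adjusted p = 0.0597) or 3 (adjusted p = 0.0511). BMI1 lost its call without DOX-negative replicate 3 (adjusted p = 0.0540) or DOX-positive replicate 1 (adjusted p = 0.0654). ETS2 and SMAD3 were named after their values were seen.

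Of 15 genes for turnover of these proteins and assembly of the kinases, 14 were tested and 1 passed (7.14%, median 0.062). This gene was CCNH, the cyclin of the CDK-activating kinase, with a log2 fold change of -0.27 (edgeR adjusted p = 0.0172). Its call was lost without any one of 4 libraries, DOX-negative replicates 1 and 3 and DOX-positive replicates 1 and 3, where the adjusted p reached 0.0845.

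**Figure D4:**
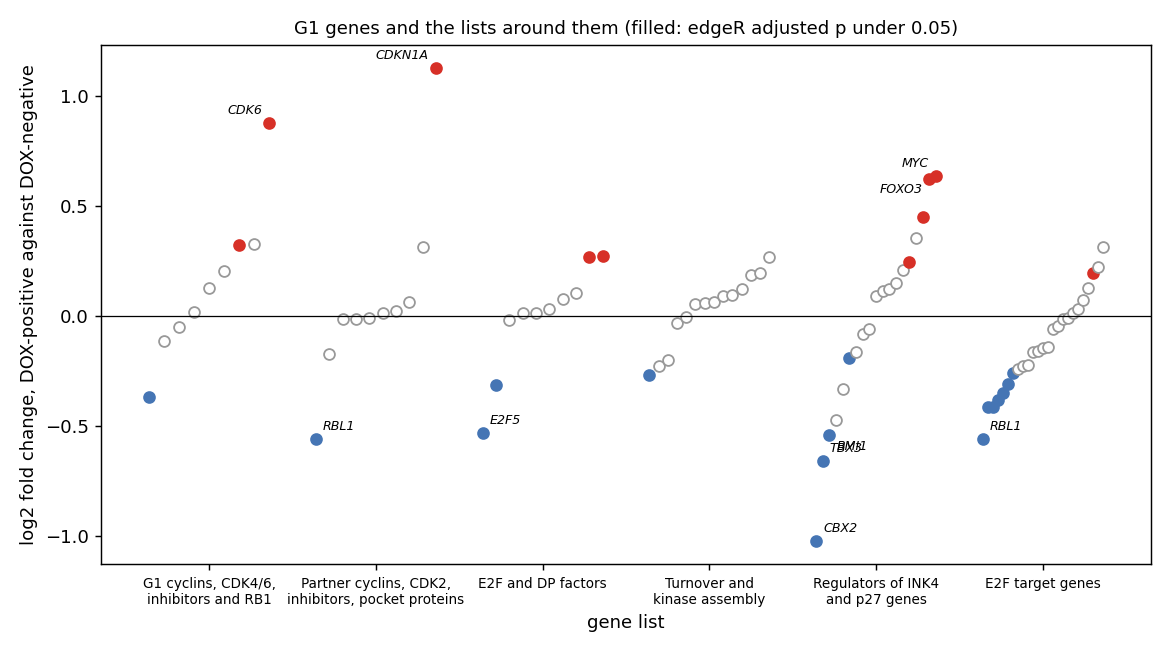
Log2 fold change, DOX-positive against DOX-negative, of each tested gene in the 6 lists, ordered by value within a list. Filled points passed edgeR at adjusted p under 0.05. Inhibitor and partner genes include CDKN1A at 1.13, and 7 of 8 filled E2F target genes lie below 0; on the deposited TPM scale 0 genes of these lists passed and the fitted CCND1, E2F7 and TFDP2 changes turned sign, as did those of CDK4, CDKN1B, CDKN1C and CDKN2B.

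Genes on either side of CDK6 were looked at to see what else changed nearby. The 6 nearest tested genes, coding or not, 3 on each side, were chosen for this after values had been seen. Around CDK6, 4 of 6 passed, beside 26.7% of all genes tested and 0 to 2 of 6 around each of the other 9 genes. Those higher were RBM48 (0.36, edgeR adjusted p = 0.000643) and CALCR (1.40, adjusted p = 0.00412), the latter low at 0.212 to 0.650 deposited TPM. Those lower were SAMD9 (-0.68, edgeR adjusted p = 0.000189) and VPS50 (-0.33, adjusted p = 0.0112). The 4 did not share a direction.

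The heptamer ATCAGTA, which earlier work on these same libraries had picked from their fold changes, was looked for in the sense strand of the longest coding transcript of each gene. It is shown here for the hairpin's target, MUC1, and for the 1 gene of the 10 that held it, CDK6, with 10 bases on each side and the heptamer in capitals (GENCODE 29).
MUC1: acacagttcaATCAGTAtaaaacggaa
CDK6: tgagtagcacATCAGTAattcagtaga
The CDK6 stretch is bases 6950 to 6976 of transcript CDK6-201, which has 11612, and the MUC1 stretch is bases 3448 to 3474 of MUC1-223. The heptamer was in 18.1% of 12392 tested genes with such a transcript, and CDK6, which holds it, was higher with DOX. That share was not matched for length. CDK6-201 is the longest of the 10 transcripts, ahead of CCND2-201 with 6480 bases, and a longer transcript has more places for a match. The match is a description, and the word's choice on these data makes it no independent evidence.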

How the data were processed

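Total RNA from triplicate cultures was made into TruSeq Stranded mRNA libraries by the authors. The authors deposited whole-number read counts for 28008 genes and TPM for 25546 genes. Per the labels, processing used STAR, DESeq2 and GRCh38 (hg38); the counting step, its use of strand and the annotation are not given in the sources used here. TPM followed the counts within 1% for 99.8% of values, but 5 short noncoding RNAs (RN7SL1, RN7SL2, RN7SL3, RN7SK, RPPH1) held 34.4% to 64.4% of a library's TPM, so TPM levels here were rescaled without them, while shares within a group of genes need no rescaling.

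Samples were grouped by title, and columns were matched by DOX state and replicate number. Counts were tested in R 4.3.3 with edgeR 4.0.16 (filterByExpr, TMM factors 0.986 to 1.03, glmQLFit and glmQLFTest, group as the only term, two-sided, Benjamini-Hochberg adjusted p under 0.05). Totals ranged from 15092691 to 23243713 counts. Floors of 3 counts and counting intervals cover counting error only. Replicate libraries were further apart than counting noise (chi-square per degree of freedom 3.79 to 20.3), so each was 1 replicate. The labels name no batch. Where nothing says that cultures were independent, p-values measure the spread between these samples, which may be technical.

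The members and lists were chosen with earlier results of these data known. Named genes were the 10 genes, MUC1 and, in each list, up to 6 genes with the largest log2 fold change past the threshold, with others named after their values were seen. Alternatives were RLE factors, DESeq2 1.42.0, scaling to total counts, dropping the filter, requiring 10 counts in each library, a replicate block, thinning to the smallest total, limma 3.58.1 on log2(TPM + 1), log2(TPM + 0.1) and rescaled TPM, and leaving out each library. On the log2(TPM + pseudocount) scale the pseudocount draws the fold changes of low genes towards 0, beside any shift of all genes. Positions are from GENCODE 29 and promoter windows from RefSeq (7 of 10 genes matched). The fits were tested on simulated counts. Some genes are not reported here.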

Additional observations from a re-analysis of the deposited data

How the results depend on the processing

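With 3 libraries per group, precision was limited for low genes, above all CCND2 and CDKN1C. Deposited TPM moved the median of all genes by -0.34 in log2(TPM + 1) and -0.39 in log2(TPM + 0.1), and limma then called 322 and 355 of 13454 genes tested, 274 and 294 of them among the 3816 that edgeR called on counts, with 9.01% of its calls higher against 48.8% for edgeR. With total counts 39.3% were higher. Both TPM settings called 0 of the 9 members (1 at an unadjusted p under 0.05, RB1) and 0 genes in each of the 5 lists (partners 3 and 2 unadjusted, E2F and DP factors 2 and 2, turnover and assembly 1 and 1, regulators 5 and 5, E2F targets 10 and 10, beside 18.5% and 18.6% of all genes in these fits). In these settings CCND1 turned to -0.069 and -0.069, CDKN1B to -0.19 and -0.19, CDKN1C to -0.050 and -0.090, CDKN2B to -0.24 and -0.26, E2F7 to -0.098 and -0.11, TFDP2 to -0.12 and -0.12 and CDK4 to -0.37 and -0.38. CDK4 was also -0.016 with total counts and -0.0087 with rescaled TPM. Turnover and assembly genes called were 2 with total counts and 2 with rescaled TPM, and E2F and DP genes called were 2 with rescaled TPM. With rescaled TPM the median of all genes was -0.025, and limma called 2863 of 14600 genes, 2700 of them shared with edgeR on counts. It called 3 of the 9 members, with CCND1 at 0.30 (limma adjusted p = 0.00443). E2F7 and TFDP2 were at 0.24 and 0.24 there and did not pass. The 5 short noncoding RNAs held 34.4% to 62.8% of TPM without DOX and 60.5% to 64.4% with DOX. The cause of the shift was not tested.

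Leaving out 1 library in turn gave 2784 to 3645 genes called, 3 to 4 members, 2 to 4 E2F and DP genes (2 without DOX-negative replicate 1 or DOX-positive replicate 3), 0 to 1 turnover and assembly genes and 5 to 8 E2F targets. CDK4 then ranged from -0.040 to 0.082 and CDKN1C from -0.024 to 0.51. Replicate numbers did not pair the samples (correlations of deviations -0.046, -0.12 and -0.032), and a fit with a replicate block called 3158 genes, 3136 of them shared, and 3 members.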
